A study of Mus musculus with 6 samples.

Results

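Of 12508 YBX1 peaks in mouse BaF3 cells, 507 had a pileup of at least 80 and a summit within 5 kb of either end of a protein-coding gene. Pileup is the deposited level of extended sequence tags over the summit, and the end of a gene here is either its transcription start or its transcript end. In list 3 pileups are not all whole numbers (the lowest here is 83.61), so they are not plain tag counts there. The peaks came from chromatin immunoprecipitation and sequencing of untreated BaF3 cells, a line derived from pro-B cells, and all samples carried JAK2 V617F. There were 3 YBX1 immunoprecipitates and 3 inputs without antibody, and each immunoprecipitate had been called against the input of its number, which gave list 1, list 2 and list 3. Whether the replicates were separate cultures is not in the labels, so the spread between lists may be technical, and neither a control antibody nor cells without YBX1 are named in them. The gene-end peaks numbered 293, 101 and 113, or 4.34%, 4.32% and 4.40% of all peaks with that pileup in the respective lists. They merged into 340 regions. These peaks were chosen by their pileup and by the distance of their summit, so both are described and not tested. Depth after removal of repeated tags was 67.0 M to 69.7 M tags for the immunoprecipitates and 67.0 M to 87.6 M for the inputs.

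YBX1 binds nucleic acids through a cold shock domain. The family takes its name from the Y-box, an inverted CCAAT motif of promoters, and is also known for binding RNA in splicing, translation and messenger stability. JAK2 V617F is an activated form of the JAK2 kinase, found in myeloproliferative neoplasms, and signals through STAT5 and through RAS and ERK.

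Of the 507 peaks, 4 touched an annotated promoter window. The RefSeq promoter windows of GRCm38.p6 run from 250 bases before to 50 after a transcription start. Windows were at hand for 17491 of the 21775 protein-coding genes and for 187 of the 236 genes nearest to a gene-end peak. The share of other peaks that overlap a window was not computed, so the 4 are a count only. The summit was inside the window in 2 of them, at Gm15319 and Gm21119, both in list 3. The windows of Gm15319 at chr8:20363153-20363452 on the minus strand and of Gm21119 at chr8:20614677-20614976 on the plus strand were identical over 300 of 300 bases. Another window, of Gm51573 at chr8:55372243-55372542 on the plus strand, lay partly under a list 1 peak whose summit was outside it, and shared 48.5% of aligned positions with them. All are gene models without an assigned function. The sequences are shown because these are the promoters that gene-end peaks reached, written 5′ to 3′ with the bases under the peak in capitals. They contain the Y-box core, CCAAT or its reverse complement ATTGG, once at position 3 in Gm15319 and at positions 79 and 23 in Gm51573, counted from the first base printed. The peak summit was at position 198 in Gm15319, away from the match, and outside the printed bases in Gm51573.
Gm15319: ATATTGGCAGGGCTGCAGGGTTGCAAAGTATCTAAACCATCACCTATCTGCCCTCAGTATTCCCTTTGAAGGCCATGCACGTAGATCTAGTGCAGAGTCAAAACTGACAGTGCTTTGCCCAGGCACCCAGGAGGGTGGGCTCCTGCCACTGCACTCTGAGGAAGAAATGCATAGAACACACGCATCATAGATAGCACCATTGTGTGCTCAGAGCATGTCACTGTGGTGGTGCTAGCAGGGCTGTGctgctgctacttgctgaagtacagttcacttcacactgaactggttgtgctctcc
Gm51573: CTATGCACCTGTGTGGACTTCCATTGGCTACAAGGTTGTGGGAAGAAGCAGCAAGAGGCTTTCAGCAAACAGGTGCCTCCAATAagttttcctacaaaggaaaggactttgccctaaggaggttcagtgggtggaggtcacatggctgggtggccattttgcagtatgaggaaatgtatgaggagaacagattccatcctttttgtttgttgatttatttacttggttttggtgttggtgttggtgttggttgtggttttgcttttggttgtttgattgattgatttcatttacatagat
CCAAT on either strand occurred in 12289 of 32851 windows of this table, or 37.4%, and a match is given here as a description. The Gm15319 peak of list 3, at chr8:20363208-20363479, had a pileup of 124 and a fold over local input of 1.74. The Gm21119 peaks had a pileup of 108 and a fold of 1.73 in list 1 and 123 and 1.72 in list 3, and list 2 had none there. Only the list 3 peak at Gm21119 had its summit in the window, while the list 1 peak covered 52 of its bases. The Gm51573 peak of list 1 had a pileup of 185 and a fold of 1.51.

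Peaks were sparser near gene ends than farther away, and, over positions inside and outside genes together, sparsest in the first 0.5 kb. Inside genes alone they were sparsest at 1 to 2 kb in each list, at 0.158, 0.105 and 0.0791 peaks per Mb. Within 5 kb the density was 33.1% ± 1.05 (SD, n = 3 lists) of that at 20 to 50 kb, counting peaks with a pileup of at least 80, and within 2 kb it was 20.5%. The comparison with 20 to 50 kb was not planned and was added after the data were seen. In the first 0.5 kb there were 15, 4 and 8 peaks, or 5.39% ± 1.58 (SD, n = 3) of the gene-end peaks on 12.6% of the bases within 5 kb. From 0.5 to 1 kb there were 26, 11 and 10, or 9.54% ± 1.17, on 11.6% of the bases. From 1 to 2 kb there were 40, 13 and 15, or 13.3% ± 0.390, on 21.5%. The outermost bin, 2 to 5 kb, held 212, 73 and 80, or 71.8% ± 0.878, on 54.4% of the bases. Per megabase the counts from the first bin to the outermost were 0.364, 0.691, 0.572 and 1.2 in list 1, 0.0972, 0.292, 0.186 and 0.412 in list 2, and 0.194, 0.266, 0.215 and 0.451 in list 3. The corresponding densities at 20 to 50 kb were 2.77, 0.953 and 1.01 peaks per Mb in lists 1, 2 and 3. Of the 74 peaks within 1 kb, 41 (55.4%) were nearest to genes named Gm plus digits or ending in Rik, which are gene models without a family name. From 1 to 5 kb this held for 89 of 433 (20.6%). Without such genes the share of gene-end peaks within 1 kb was 8.81% in place of 14.9% ± 0.970 (SD, n = 3).

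**Figure D1:**
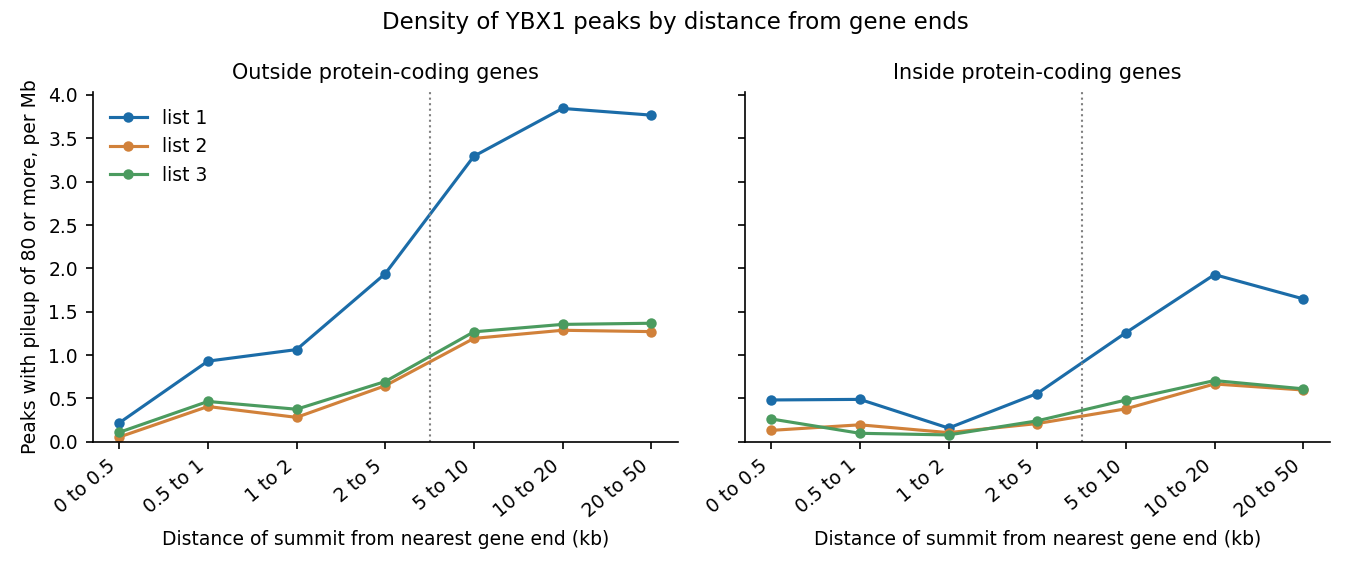
Peaks with a pileup of at least 80 per megabase of sequence by distance of the summit from the nearest gene end in kb, outside genes (left) and inside genes (right), 1 line for each list. The dotted line marks 5 kb, the outer limit of the gene-end peaks. Outside genes all 3 lists are lowest in the first 0.5 kb, at 0.218, 0.0545 and 0.109 peaks per Mb, and inside genes they hold 0.482, 0.132 and 0.263 there and are lowest at 1 to 2 kb, at 0.158, 0.105 and 0.0791.

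Most gene-end peaks were outside genes, as were most peaks of like pileup farther away, so this is not particular to gene-end peaks. At 20 to 50 kb from an end, 937, 316 and 340 peaks with a pileup of at least 80 were outside genes and 367, 133 and 136 inside. Of the gene-end peaks, 80, 31 and 34 were inside any protein-coding gene, or 27.3%, 30.7% and 30.1% (95% Wilson intervals 22.5 to 32.7, 22.5 to 40.3 and 22.4 to 39.1). The intervals cover counting error only, and peaks that are copies of one another are not independent. The mean was 29.4% ± 1.81 (SD, n = 3), while 54.1% of the bases within 5 kb of an end were inside a gene. Per megabase there were 0.454, 0.176 and 0.193 peaks inside and 1.42, 0.468 and 0.528 outside. In the first 0.5 kb this order was turned in each list, with 11, 3 and 6 peaks inside against 4, 1 and 2 outside. This reversal rests on 27 peaks in all and was not tested. Exons, introns and untranslated regions were not analysed here.

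For genes of known strand, peaks lay more often at the transcript end than at the start. Strand was known for 17491 of 21775 genes (80.3%), and this comparison was chosen after the data were seen. At the transcript end lay 148, 60 and 57 peaks and at the start 87, 24 and 37, so the end held 63.0%, 71.4% and 60.6%, or 65.0% ± 5.68 (SD, n = 3), on 49.3% of the bases. The exact sign-flip permutation test over the 3 lists gave p = 0.25, the smallest that 3 lists allow, so the design cannot reach 0.05. As a difference per Mb, the excess was larger outside genes, where peaks were also denser, than inside them. As a ratio of end to start, it was not larger outside genes in list 3. Inside genes, 27, 16 and 16 peaks nearer the end gave 0.425, 0.252 and 0.252 per Mb. Nearer the start, 29, 8 and 10 peaks gave 0.454, 0.125 and 0.157, so list 1 had no excess inside. Downstream of genes, 121, 44 and 41 peaks gave 1.86, 0.677 and 0.631 per Mb. Upstream of starts, 58, 16 and 27 peaks gave 0.851, 0.235 and 0.396. The difference, downstream minus upstream, was 1.01, 0.443 and 0.235 per Mb, or 0.563 ± 0.402 (SD, n = 3), higher in 3 of 3 lists (two-sided exact permutation p = 0.25).

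**Figure D2:**
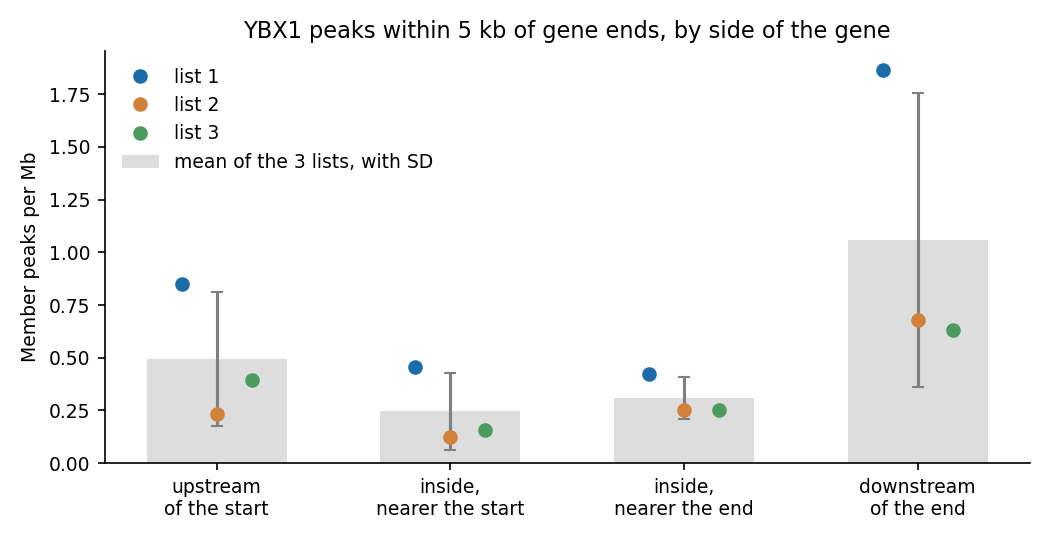
Gene-end peaks per megabase in 4 positions relative to the gene, for genes of known strand. Dots are the 3 lists, and grey bars with error bars give their mean and SD. Downstream of the transcript end is the highest position in each list, at 1.86, 0.677 and 0.631 peaks per Mb.

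The peaks nearest to a gene end were at a vomeronasal receptor gene, at gene models and at Ipp. In list 3 the nearest was the Gm15319 peak printed above, 53 bp upstream of that gene. In list 1 it was a peak 116 bp inside Vmn2r29, a vomeronasal receptor gene of the pheromone-sensing system, at chr7:7278041-7278232, with a pileup of 112 and a fold of 1.84, found in no other list. The peak in Gm52416, at chrX:72876718-72877015 and 151 bp from its nearer end, had pileups of 219, 219 and 202 and folds of 1.98, 2.01 and 1.73. A peak at the same distance inside Gm52433, on the same chromosome at chrX:77076157-77076435, had pileups of 219 and 202 and folds of 1.98 and 1.73 in lists 1 and 3 and was absent from list 2. The pileups and folds of the pair were equal in both of those lists. A peak 191 bp beyond the transcript end of Ipp had pileups of 255 and 257 and folds of 2.35 and 2.02 in lists 1 and 2. Ipp encodes an actin-binding protein. In list 2 the nearest after those at Gm52416 and Ipp was a peak 447 bp inside the end of Gm21149, with a pileup of 122 and a fold of 2.11, in no other list.

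Gene-end peaks were found again in other lists in a slightly lower share than peaks elsewhere, a difference that 3 lists cannot carry past a test. A peak was counted as found again when it overlapped a peak of another list by at least 1 bp. This held for 119 of 293 (40.6%), 83 of 101 (82.2%) and 91 of 113 (80.5%) peaks, against 42.7%, 88.0% and 86.0% of all peaks with a pileup of at least 80. Against the other peaks of that pileup, the share was lower in 3 of 3 lists, by 2.13, 6.10 and 5.71 percentage points, a mean difference of -4.65 ± 2.19 (SD, n = 3; two-sided exact permutation p = 0.25). With no minimum pileup the mean difference was -12.8. In both other lists were 14.7%, 42.6% and 37.2% of gene-end peaks and 18.9%, 54.6% and 49.4% of other peaks. Within 1 kb of an end, 23 of 41, 13 of 15 and 15 of 18 were found in another list. From 1 to 5 kb the numbers were 96 of 252, 70 of 86 and 76 of 95. List 1 was the longest, and 174 of the 340 regions held gene-end peaks of list 1 alone, against 19 of list 2 alone and 22 of list 3 alone. Regions with gene-end peaks of at least 2 lists numbered 125 (36.8%), and 42 (12.4%) had gene-end peaks of all 3. These region counts leave out overlapping peaks of another list that missed the pileup or distance limit, as at Rbm25.

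**Figure D3:**
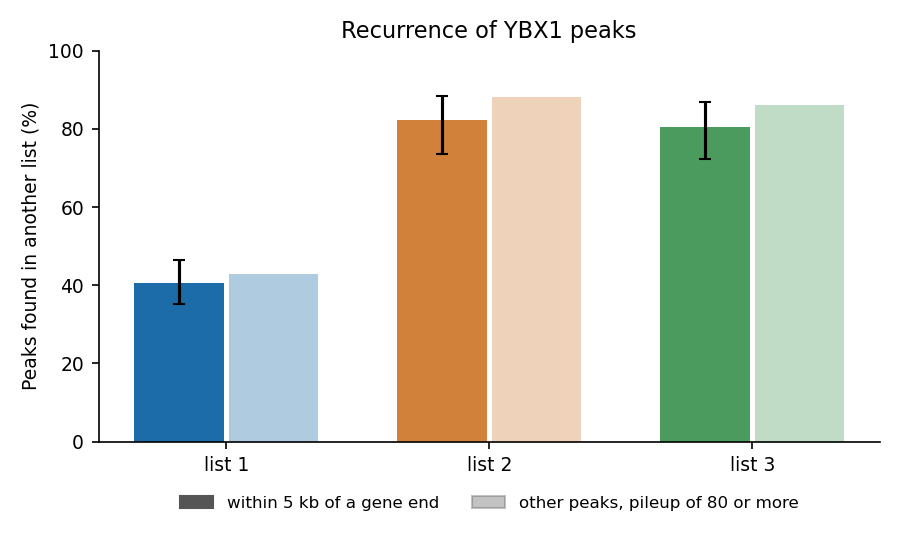
Share of peaks in each list that overlapped a peak of another list, in percent, for gene-end peaks (dark bars with 95% Wilson intervals) and for the other peaks with a pileup of at least 80 (pale bars). The dark bars stand at 40.6%, 82.2% and 80.5%, below the pale bars at 42.7%, 88.3% and 86.2%.

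The folds of gene-end peaks were low, with medians of 1.76, 1.66 and 1.72 in lists 1, 2 and 3 (ranges 1.32 to 4.71, 1.30 to 4.12 and 1.35 to 4.70). The fold is the pileup over the local input level. Local input at the median peak was 29.1, 28.9 and 28.2 times the genome-wide level, so these were regions with many reads in input as well. A pileup of at least 80 at a low fold itself requires a high local input. Against the other peaks of that pileup, the median fold differed by -0.0250 ± 0.0199 (SD, n = 3) and the median local input by 0.797 ± 0.822 times the genome-wide level (both exact permutation p = 0.25). Fold and local input both depend on pileup, by which the peaks were chosen, so no conclusion is drawn from these 2 tests. By list, the difference in local input was 0.189, 0.471 and 1.73, and without list 3 its mean was 0.330. Both differences changed sign when no minimum pileup was set, to 0.0503 and -1.79. Folds of 2 or more occurred at 85, 20 and 25 gene-end peaks and of 3 or more at 6, 1 and 1.

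Of the 42 regions with gene-end peaks in all 3 lists, 24 were at transcript ends, 8 at starts and 10 at genes without known strand. The spread of their summits over the lists was at most 10 bp in 24 regions, with a median of 7.5 bp over the 42 and a maximum of 380 bp, at Vmn2r46. The highest fold of the 3 lists came from list 1 in 35 of them, and the fold was under 2 in all 3 lists in 22. The highest folds were at Cab39l, which encodes a scaffold protein of the kinase LKB1. Its region, at chr14:59445760-59446013, was inside the gene, 4.94 kb from its start in list 1, with folds of 4.71, 4.12 and 4.70. Its pileups of 83, 83 and 83.61 were just above the limit, and its local input, 4.16, 4.71 and 4.21 times the genome-wide level, was the lowest of the gene-end peaks in each list.

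The other regions named for the highest folds had folds between 2 and 3 in each list. At Grifin, a lens protein gene, the region at chr5:140561095-140561422 lay 1.97 kb beyond the transcript end, with folds of 2.75, 2.28 and 2.53 and pileups of 193, 196 and 199. Near Morn2, the region at chr17:80285915-80286164 was outside that gene and inside Dhx57, which encodes a putative helicase, with folds of 2.75, 2.38 and 2.43. At Ogfod2, chr5:124108543-124108894 had folds of 2.53, 2.15 and 2.11. At Dtwd2 the folds were 2.42, 2.42 and 2.23. At Scgb1b3, of the secretoglobin family of small secreted proteins, chr7:31371734-31372078 had folds of 2.43, 2.09 and 2.39. Lrrc59, the gene of a ribosome-binding membrane protein, had folds of 2.43, 2.13 and 2.15 at chr11:94627957-94628322. Olfr53, an olfactory receptor gene, had 2.09, 2.48 and 2.26 at chr7:140654896-140655258. Among the regions nearest to gene ends, those at Hmgn3, a nucleosome-binding protein gene (folds 1.81, 1.69 and 1.64), at Gm52441 (1.37, 1.35 and 1.39) and at 4930579G24Rik (2.26, 2.00 and 1.90) lay between 1.15 and 1.88 kb from an end. At Spin2d, 704, 705 and 704 bp from the transcript end, the pileups were 204, 204 and 205, and at Gm11127, 801, 801 and 797 bp from it, they were 271, 273 and 257. The region at Pvr, an adhesion receptor gene, had summits 975, 838 and 856 bp from the nearer end of the gene and pileups of 173, 195 and 179.

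**Figure D4:**
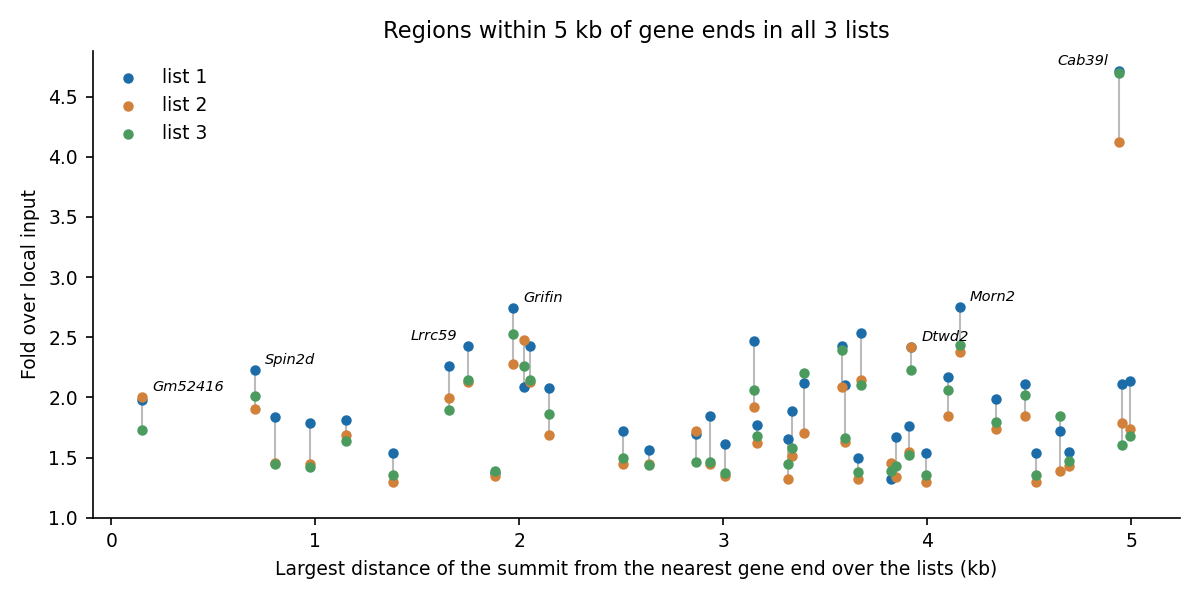
Folds over local input of the 42 regions in all 3 lists against the largest distance of their summit from the nearest gene end in kb, with the 3 lists of a region joined by a line. Names mark the regions at Gm52416, Spin2d, Lrrc59, Grifin, Dtwd2, Morn2 and Cab39l, and Cab39l lies above all others at 4.71, 4.12 and 4.70.

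Many gene-end peaks had copies at other places in the genome. A peak was called an identical copy when another peak of its list equalled it in length, pileup, fold and position of the summit. This held for 63, 31 and 28 gene-end peaks, or 21.5%, 30.7% and 24.8%, against 22.7%, 25.1% and 19.5% of other peaks with that pileup, a mean difference of 3.22 ± 3.84 percentage points (SD, n = 3; exact permutation p = 0.5) that was 5.44 without list 1 and 2.05 without list 2. The peaks at Lrrc59 and at Gm10639 (chr9:78287801-78288166) had equal values in every list, with pileups of 258, 255 and 239.28. Both belonged to a group of 44 identical peaks on 19 chromosomes in list 1, of 57 on 20 in list 2 and of 14 on 10 in list 3. In list 1 the peak 1.88 kb from Rxfp1, a relaxin receptor gene, with a pileup of 202 and a fold of 2.91, was 1 of 64 identical peaks on 20 chromosomes, and list 2 and list 3 had none there. Rxfp1 and the genes in the next sentences were chosen after their values were seen.

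Some copies also shared neighbouring peaks. Near Ipp and near Bpi, which encodes a bactericidal protein of granulocytes, list 1 had 3 peaks with the same pileups of 255, 279 and 214 at both genes. Measured from the middle peak, the flanking ones lay at -1131 and 710 bp at Ipp and at -1133 and 709 bp at Bpi. In list 2 the first of these lay at -1189 bp at both. The central peak, with pileups of 279, 276 and 252.74, also lay at Zfp985, a zinc finger gene, and its list 2 and list 3 values at Rbm25. A different set was shared by Shprh, Arg2, Olfr108 and Gm10639, with pileups of 267 in list 1 and 269 in list 2. In list 1 a second peak with a pileup of 251 followed at 938 bp at both Arg2 and Gm10639. Local input at the shared central peaks was 48.2 and 49.7 times the genome-wide level in lists 1 and 2 of the second set and 44.8, 51.5 and 46.0 times in the 3 lists of the first. What sequence these copies share was not analysed here.

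**Figure D5:**
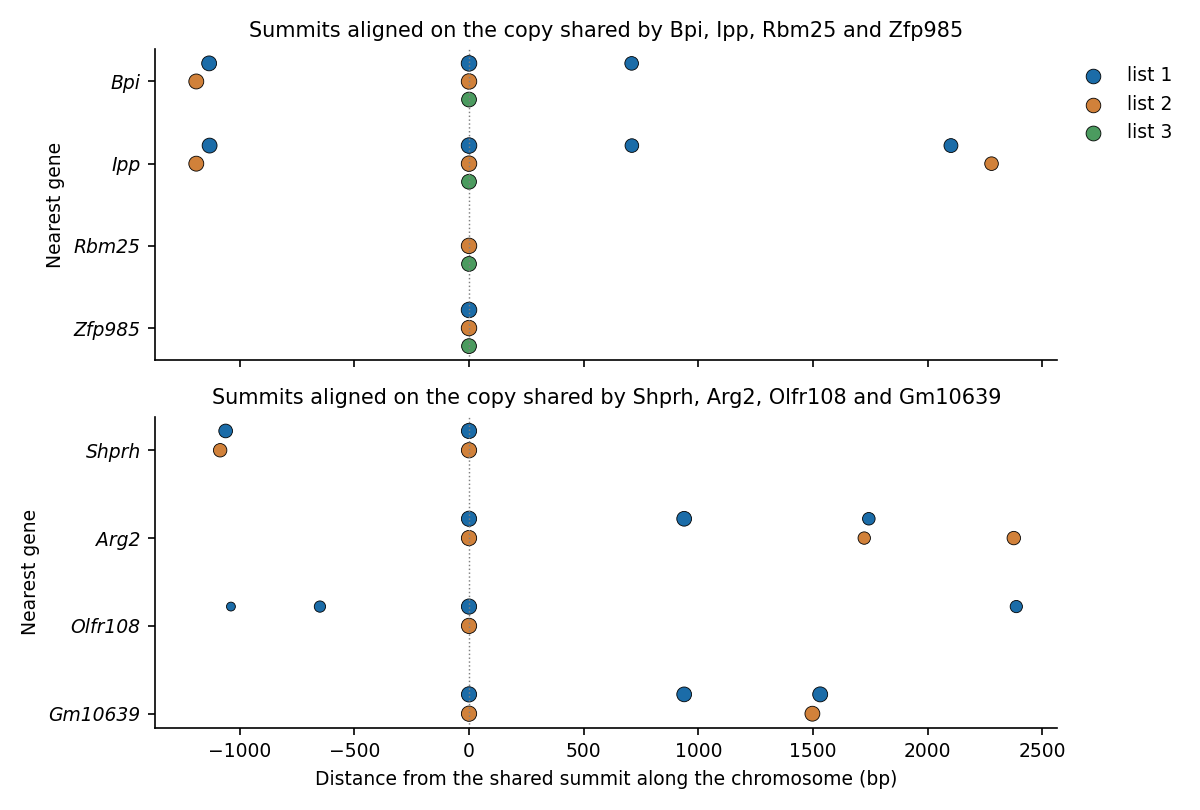
Summits of gene-end peaks near 8 genes, aligned on the peak that the genes of a panel share, with distance along the chromosome in bp. Dot size follows pileup and colour gives the list. Near Bpi and Ipp the flanking list 1 summits fall at -1133 and 709 bp and at -1131 and 710 bp, while Arg2 and Gm10639 share a list 1 summit at 938 bp.

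Peaks were spread over many genes. An end within 5 kb of a gene-end summit was found for 256 of 21775 protein-coding genes (1.18%), and 236 genes were the nearest to at least 1 summit. Of these 236, 164 had 1 region, 49 had 2 and 23 had at least 3. Gene models of the Gm and Rik kind made up 52 (22%) of the 236, against 1742 (8.0%) of all genes, and 58 of the 1742 had an end within 5 kb of a summit (3.33%). Gm21119 and Gm15319 had the most regions, 5 each. On chromosome 8, which holds both, there were 56 gene-end peaks, or 11% of the total with 4.79% of the genes, and 18 of them were nearest to Gm15319, Gm21119 or Gm51573. Chromosome X held 51 peaks (10.1%, with 4.42% of the genes) and chromosome Y held 0, with 256 genes. These counts sum the lists, so a region in several lists counts more than once. The regions numbered 39 on chromosome 8 and 37 on X. The share of all peaks with that pileup on each chromosome was not computed, so an excess particular to gene-end peaks is not shown.

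Among gene families, counts were small. Olfactory receptor genes, the largest family, had an end within 5 kb of a summit for 15 of 1109 (1.35%, beside 1.18% of all genes), with 31 peaks and folds from 1.31 to 2.65. Olfr108 had 4 regions, and Olfr101 one with folds of 1.56, 1.45 and 1.44. Vomeronasal receptors had 4 of 228 Vmn1r genes (1.75%) and 3 of 122 Vmn2r genes (2.46%). The highest Vmn1r fold, 2.79 at 233 bp from Vmn1r48, was in list 1 alone, and Vmn1r30 reached 1.67 in list 1 and 1.46 in list 2. Vmn2r38 had folds of 1.61, 1.35 and 1.37, and Vmn2r46 had 1.70, 1.72 and 1.47. Secretoglobin genes had 4 of 40 (10.0%), Cyp genes, which encode cytochrome P450 enzymes, 3 of 99 (3.03%), and Pramel and Oog genes 3 of 51 (5.88%). Cyp2c67 had folds of 1.84, 1.45 and 1.46, and Cyp4a12a had 3.34 in list 1 alone with a pileup of 125. Scgb1b26-ps reached 2.41 in list 1 and 2.00 in list 3, and Scgb2b21 had 1.54 and 1.97 in 2 list 1 peaks. Pramel22 had peaks in lists 1 and 2, while Pramel14 and Oog1 had list 1 peaks with folds of 1.65 and 2.11. Zfp genes had 3 of 397 (0.756%), among them Zfp414 at 2.20 in list 1 and 1.82 in list 3, and Tmem genes 3 of 238 (1.26%), among them Tmem72 and Tmem192. Histone genes (103) and ribosomal protein genes (97) had 0. Families of a handful of genes move by 1 gene, and none was tested.

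Of 218 genes in the 5 lists written for the pathways of this cell model, 1 had a gene-end peak (0.459%, beside 1.18% of all genes). It was Rbm25, a splicing regulator gene, among 61 splicing factors (1.64%). Its gene-end peaks in lists 2 and 3, at chr12:83627112-83627283, were 4968 and 4963 bp upstream of the start. They had pileups of 276 and 252.74 and folds of 1.30 and 1.36, and were identical copies of peaks on other chromosomes. List 1 also had an overlapping peak there, which did not meet the limits of a gene-end peak. None of the 44 JAK-STAT genes, 49 RAS-ERK-MNK genes, 32 genes of Y-box proteins and of targets known for a Y-box, or 33 B lineage genes in these lists had one. These counts say only that no called peak with that pileup lay there. The lists do not hold every gene of these pathways. Prpf39, a pre-mRNA processing factor gene, was not in them and had gene-end peaks with folds of 2.14, 1.74 and 1.68. Il23r, a cytokine receptor gene chosen after its values were seen, was not in them either and had a list 1 peak with a fold of 2.55.

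The limits cut through peaks of like values. Just inside the pileup limit were 83, 84 and 84 in list 1, 82, 82 and 83 in list 2 and 83.61, 89.37 and 89.37 in list 3. Just outside it were 79, 77 and 76, 77, 77 and 73, and 76.88, 75.92 and 74.96. One of the latter, in list 3, had its summit 7 bp from the end of 4931408C20Rik, nearer than any gene-end peak. Just inside 5 kb lay Prpf39 at 4.995 kb in list 1, and just outside lay Chrac1 at 5.002 kb in lists 1 and 3. In all, 44, 38 and 30 peaks near gene ends had a pileup below 80.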

How the data were processed

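YBX1 immunoprecipitates and inputs (3 each) were grouped by their titles. Per the submitters' processing notes, Trim Galore and MACS2 were used, with GRCm38 as the build. No aligner is named (not given in the sources used here). Calls used MACS 2.1.1.20160309 with a q threshold of 0.01, a 160 bp extension and 1 tag kept per position and strand, per the file headers, so pileup cannot exceed 320. Pileup is the authors' signal of extended tags at the summit. The fold is the deposited ratio of pileup to local input, each plus 1, and q is the deposited −log10 q. Local input was solved from pileup and fold.

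Distances used gene spans of the RefSeq table for GRCm38.p6 (21775 protein-coding genes, after 108 entries starting below 3 Mb outside chromosome Y were left out), with strand from its promoter table. Peaks of the lists were merged at 1 bp of overlap. Differences between gene-end and other peaks were tested over the 3 lists by exact sign-flip permutation, after the script was tested on simulated data. Python 3.11.15, pandas 2.3.3, NumPy 2.4.6, SciPy 1.17.1 and Matplotlib 3.10.9 were used.

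The gene-end peaks and gene lists were chosen with earlier results of these data known. Genes were named by rule: of the regions in all 3 lists, the 12 nearest to gene ends and the 8 with the highest lowest fold; the 3 nearest peaks of each list; up to 3 genes of each family with at least 3 genes; list genes with a peak; genes whose promoter window holds a summit; and the 3 peaks on either side of each limit. Other genes are said to have been chosen after their values were seen. Alternatives varied the distance, pileup and q limits, copies, gene models and lists.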

Additional observations from a re-analysis of the deposited data

How the results depend on the processing

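Of 92 alternatives over 9 results, 74 left the result in place, 4 reversed it and 14 moved it. Moved means by more than the SD over the lists for the shares within 1 kb and inside a gene. For the number of peaks it means by over 1.5 times. For the differences from other peaks, the transcript-end share and the density, in place means only that the direction was kept, whatever the size. The difference in identical copies thus counted as in place at 0.900 percentage points with no pileup minimum. The cause was not tested. Median fold of gene-end minus other peaks, -0.0250, became 0.00675 at a −log10 q of at least 5 and 0.0503 with no pileup minimum, and the difference in local input, 0.797, became -1.79 with no pileup minimum. Without list 3 the difference in local input was 0.330. The difference in identical copies, 3.22 percentage points, became -1.26 at a 2 kb limit. The mean number of gene-end peaks per list, 169, became 47.3 at 2 kb and ran from 107 to 203 when 1 list was left out; without list 1 it was 107. The share within 1 kb, 14.9%, became 13.7% at a −log10 q of at least 5, 52.9% at 2 kb, 18.3% with no pileup minimum, 13.9% at a pileup of 150, 8.81% without Gm and Rik genes and 16.2% without identical copies. Under the same settings the share inside a gene, 29.4%, became 25.7%, 35.3%, 35.4%, 24.9%, 21.7% and 34%. The lower share found in another list, the excess at transcript ends and the low density near gene ends kept their direction in the alternatives run, the first reaching -12.8 percentage points with no pileup minimum and the last 20.5% at 2 kb; the alternatives for the last 2 were added after seeing the data. No paired analysis was possible because the tests compare peaks within a list, and each list already pairs an immunoprecipitate with the input of its number. With 3 lists the exact test cannot go below 0.25, and regions that were not called have no values here.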

Other observations

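Some of the highest folds among gene-end peaks were in list 1 alone. They lay outside Igfbp7, which encodes a secreted insulin-like growth factor binding protein (fold 3.39, pileup 127), Crisp3, a secretory protein gene (3.34, 84), Rai2 (3.24, 89) and Vma21, which encodes an assembly factor of the vacuolar proton pump (3.04, 172). Local input at these peaks was 9.08, 6.05, 6.62 and 13.8 times the genome-wide level, against a median of 29.1 in list 1. Neither list 2 nor list 3 had an overlapping peak at these 4 genes, which were chosen after their values were seen.

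Spaca5, a sperm acrosome gene on chromosome X, had 4 regions inside its span, all in list 1 alone, with folds from 1.72 to 2.06 and pileups of 241, 212, 268 and 119. It was chosen after its values were seen.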
